A study of Homo sapiens with 12 samples.

Results

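The genes described here are the galectin genes LGALS1, LGALS3, LGALS7, LGALS7B, LGALS8 and LGALS9 and the galectin ligand gene LGALS3BP, taken as the rows with these symbols in count tables of MUC1-C silenced head and neck squamous cell carcinoma cells. All 7 symbols were found among the 39368 listed for each line. Galectins are small lectins that bind β-galactosides. They are made in the cytosol without a signal peptide and act both there and, after export by an unconventional route, on glycoproteins of the cell surface and matrix. Galectin-3 binds glycans carried by the transmembrane mucin MUC1, whose C-terminal subunit, MUC1-C, was the target of the silencing.

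CAL27 and HSC3 are established HPV-negative lines from squamous carcinomas of the tongue. Both carried a doxycycline (DOX)-inducible shRNA against MUC1 (tet-MUC1shRNA). Each was grown for 7 days with 0.1% DMSO as the vehicle or with 500 ng/ml DOX, giving 4 groups of 3 poly(A) RNA libraries. The extraction protocol describes triplicate cultures, so the p-values measure the spread between cultures of 1 line. No DOX-treated library with a control shRNA was analysed here, and within each line the shRNA and the drug cannot be told apart.

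The libraries held 89730914 to 169065103 counts. From genes with no count it was estimated that 2.66 to 3.55 counts stood for 1 molecule in CAL27 libraries, 4.40 to 7.66 in HSC3 vehicle libraries and 9.14 to 17.5 in HSC3 DOX libraries, with HSC3 DOX library 1 the highest. MUC1 stood at 53.1 to 58.4 CPM (counts per 1e6, TMM-normalized) in CAL27 vehicle libraries and at 2.76 to 3.25 in CAL27 DOX libraries (log2 fold change -4.21, adjusted p = 1.6e-19). In HSC3 it stood at 1.64 to 1.97 and 0.132 to 0.310 CPM (-2.88, adjusted p = 2e-04). All 6 squamous markers were at or above 1 CPM in every group, and their summed level was lower in every DOX library than in every vehicle library. In CAL27 the sum was 5960 to 6230 CPM without DOX and 2660 to 2840 CPM with it, and in HSC3 6060 to 6870 and 2700 to 3300 CPM. Taken singly, 5 of the 6 fell in each line, where 21.8% of all genes fell in CAL27 and 15.4% in HSC3. SFN was not called in CAL27 (log2 0.021, adjusted p = 0.73) or in HSC3 (-0.29, adjusted p = 0.071). The 4 leukocyte markers together stayed under 1 CPM in every library. Of the markers of other cells, CDH5 (endothelial) stood at 14.6 and 9.97 CPM on average in CAL27 vehicle and DOX cells and at 0.0231 and 0 in HSC3, with 2 endothelial genes falling in CAL27. Of 3 fibroblast genes tested in CAL27, LUM fell from 2.09 to 0.536 CPM (log2 -1.97, adjusted p = 2.9e-08), PDGFRB fell from 0.881 to 0.430 (-1.02, adjusted p = 0.0052) and COL1A1 stood at 8.40 and 7.83 (-0.10, adjusted p = 0.32). In HSC3, COL1A1 rose from 4.59 to 7.62 CPM (log2 0.73, adjusted p = 0.0089), and DCN, LUM and PDGFRB were under 1 CPM. The part of these markers in the galectin values was not tested.

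Promoter windows show how far the members share regulatory letters. RefSeq on GRCh38.p14 gave windows of 300 bases, from 250 before to 50 after a start, for 6 of the 7 members. They were searched on both strands for the interferon-stimulated response element (ISRE), as GAAA and GAAA set 2 bases of any kind apart, a motif bound by interferon regulatory factors, and for the gamma-activated site (GAS) as TTCNNNGAA, a palindrome of interferon-γ responsive promoters. An ISRE was present in 3.57% and a GAS in 7.66% of 35116 windows over all genes. Among the members, LGALS9 and LGALS3BP held an ISRE and no window held a GAS. The windows of these 2 genes are shown with the ISRE in capitals. They are chr17:27630938-27631237 on the plus strand for LGALS9, with the motif starting 9 bases before the start, and chr17:78979874-78980173 on the minus strand for LGALS3BP, with the motif starting 58 bases before it.
LGALS9: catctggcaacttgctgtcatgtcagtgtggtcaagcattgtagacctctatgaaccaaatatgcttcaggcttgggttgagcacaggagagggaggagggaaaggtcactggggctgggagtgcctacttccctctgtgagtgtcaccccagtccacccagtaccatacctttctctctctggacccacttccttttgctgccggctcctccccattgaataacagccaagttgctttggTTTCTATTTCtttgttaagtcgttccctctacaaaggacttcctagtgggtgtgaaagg
LGALS3BP: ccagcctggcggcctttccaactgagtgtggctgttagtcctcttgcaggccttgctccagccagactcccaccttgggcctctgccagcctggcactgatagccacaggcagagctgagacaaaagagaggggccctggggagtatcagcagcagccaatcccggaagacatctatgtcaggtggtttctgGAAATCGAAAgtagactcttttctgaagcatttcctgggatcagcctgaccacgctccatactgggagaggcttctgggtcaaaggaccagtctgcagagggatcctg

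LGALS9 has near-identical copies, LGALS9B (chr17:20449395-20467539, minus strand) and LGALS9C (chr17:18476737-18494945, plus strand), which bear on the reading of its counts. Their windows matched that of LGALS9 at 94.2% and 94.1% of aligned bases. Neither held the ISRE. Both differed from the LGALS9 motif by T9A, counted from 1 at the 5′ end of the motif as printed, with the LGALS9 base given first. The stretch around the motif is shown with its 10 bases in capitals and 12 bases on each side.
LGALS9: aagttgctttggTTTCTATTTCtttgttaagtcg
LGALS9B: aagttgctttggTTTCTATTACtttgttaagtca
LGALS9C: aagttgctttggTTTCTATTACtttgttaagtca

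The question of the vehicle libraries was which members the lines express and how much. Levels of different genes are given as TMM-normalized CPM per kb of annotated exons (GENCODE v44). In CAL27 vehicle cells LGALS3BP was highest at 103 ± 3.89 CPM per kb (SD, n = 3), followed by LGALS3 at 33.6 ± 1.99, LGALS8 at 17.6 ± 0.286, LGALS1 at 12.8 ± 0.961 and LGALS9 at 1.88 ± 0.126. In HSC3 vehicle cells the order was LGALS1 at 177 ± 18.1, LGALS3 at 115 ± 4.05, LGALS3BP at 57.0 ± 2.19, LGALS8 at 17.1 ± 0.508 and LGALS9 at 0.258 ± 0.0422. Thus LGALS1 was next to last in CAL27 and at the top in HSC3. No neighbours in either order had overlapping libraries. With the length of the canonical transcript in place of all exons, the order was kept, but LGALS1 (23.8 to 27.7) and LGALS8 (27.6 to 28.5) met in CAL27 vehicle cells.

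**Figure D1:**
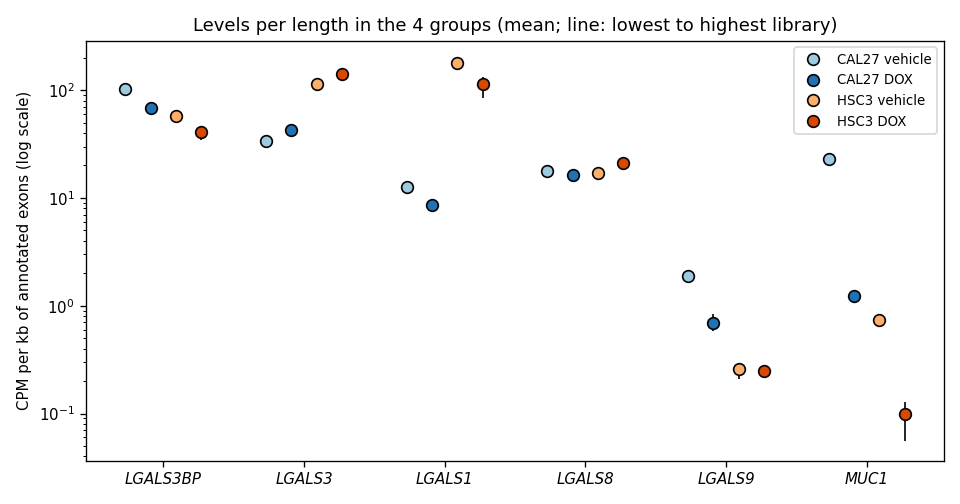
CPM per kb of annotated exons on a log axis for 5 members (galectin genes and the ligand gene LGALS3BP) and MUC1 in the 4 groups. The mean of 3 libraries is a point and the lowest to highest library a line. LGALS1 goes from 12.8 in CAL27 to 177 in HSC3 vehicle cells, whereas LGALS8 stays between 16.4 and 21.3 in all 4 groups.

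Between the lines, HSC3 vehicle cells held more LGALS1 and LGALS3 and less LGALS9 and LGALS3BP than CAL27 vehicle cells. In total 4 of the 5 members tested were called (adjusted p under 0.05), 3 of them past a 2-fold change, in a comparison that called 71.8% of 19410 genes, and 34.7% past 2-fold. LGALS1 and LGALS3 were up (34.7% of all genes) and LGALS9 and LGALS3BP down (37.1%). The share of members called is near this background. In bulk RNA of a line, such a difference cannot separate another share of expressing cells from another RNA level per cell. The lines have no library in common, so line and sequencing library cannot be told apart. The estimated counts per molecule were 2.66 to 3.24 in CAL27 and 4.40 to 7.66 in HSC3 vehicle libraries.

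LGALS1, which encodes a dimeric galectin that binds integrins and laminin, stood at 13.6, 14.6 and 12.6 CPM in CAL27 and at 205, 195 and 167 CPM in HSC3 vehicle libraries. The groups were far apart, with a log2 difference of 3.80 (SE 0.0797, 13.9-fold, adjusted p = 3.4e-13). LGALS3, encoding the chimeric galectin with a collagen-like tail that lets it form oligomers, stood at 78.6, 72.7 and 70.1 CPM in CAL27 and at 252, 262 and 244 in HSC3. It was 3.43-fold higher in HSC3 (log2 1.78, SE 0.0483, adjusted p = 3.1e-12).

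LGALS9, encoding a tandem-repeat galectin known as a ligand of the T-cell receptor TIM-3, went the other way. It stood at 11.3, 9.92 and 11.0 CPM in CAL27 and at 1.21, 1.67 and 1.56 in HSC3, a 7.30-fold lower level (log2 -2.87, SE 0.131, adjusted p = 4.3e-10). Its copies LGALS9B and LGALS9C were higher in HSC3, by 8.75-fold and 6.03-fold (adjusted p = 6.8e-09 and 1.4e-05). The reads of the 3 genes summed, an alternative chosen after the data were seen, gave a log2 difference of -0.39 (adjusted p = 0.011). LGALS3BP, a secreted glycoprotein that binds galectin-3 and is known to be inducible by interferon, stood at 368, 343 and 349 CPM in CAL27 and at 203, 195 and 188 in HSC3 (log2 -0.85, SE 0.0419, adjusted p = 8.8e-10). LGALS8, a tandem-repeat galectin that marks damaged endosomes for autophagy, stood at 165 to 170 CPM in CAL27 and 156 to 165 in HSC3. Its groups overlapped and the log2 difference was -0.041 (SE 0.0379, adjusted p = 0.35). That value depended on the scaling: with library totals, which moved the median of all genes by -0.27, the LGALS8 difference was -0.31 (adjusted p = 5.6e-06). The other 4 members kept their call and direction under that scaling.

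The remaining members were at the limit of detection. LGALS7 and LGALS7B (chr19:38770968-38773517, minus strand, and chr19:38789200-38791754, plus strand) encode the same keratinocyte galectin of stratified epithelia. Over all their annotated transcripts they share 51% and 65% of their 50-base stretches with other genes, so that their reads can be divided between them or left uncounted. The sum of both was 8, 0 and 2 counts in CAL27 vehicle, 1, 1 and 0 in CAL27 DOX, 4, 2 and 8 in HSC3 vehicle and 0, 5 and 0 in HSC3 DOX libraries. A floor of 3 counts in a library corresponds to 0.020 to 0.036 CPM. This floor takes each count as 1 molecule, whereas 2.66 to 17.5 counts were estimated to stand for 1 molecule. The limit of detection thus lies above it, most of all in HSC3 DOX libraries. Both were left out by the filter on low counts, and no fold change is given for them. Galectin-7 mRNA was not detectable beyond a few counts in these tables. How reads matching both genes were treated is not given in the sources used here, so the counts do not show that the mRNA was absent.

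The effect of MUC1-C silencing was then examined in each line. In CAL27 cells, DOX lowered LGALS9, LGALS3BP and LGALS1 and raised LGALS3, with a small fall of LGALS8. In HSC3 cells, DOX lowered LGALS1 and LGALS3BP, raised LGALS3 and LGALS8 and gave no call for LGALS9. All 5 members tested were called in CAL27, where 44.5% of 19239 genes were called, 4 of them down (21.8% of all genes) and 1 up (22.6%). In HSC3, 4 of 5 were called, where 28.4% of 18021 genes were called, with 2 down (15.4%) and 2 up (13.0%). Most of these changes were small. Past a 2-fold change edgeR called 1 member in CAL27 (6.42% of all genes) and 0 in HSC3 (5.98%), where 4 members had an unadjusted p under 0.05 and DESeq2 called 4 members at any fold. For any gene taken alone, the smallest exact permutation p that 3 libraries in each group allow is 0.1.

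**Figure D2:**
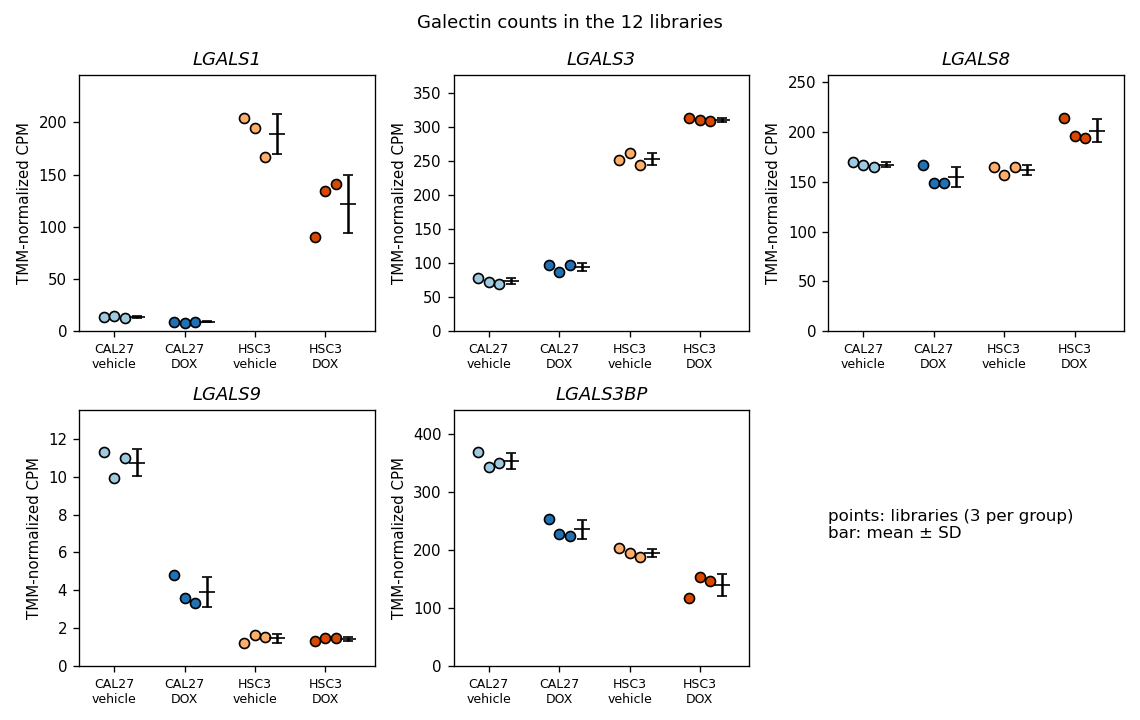
TMM-normalized CPM on linear axes from 0 for the 5 members above the filter, by group, with each library as a point and the mean ± SD as a bar (n = 3). LGALS3 lies higher and LGALS1 and LGALS3BP lower in every DOX library than in every vehicle library of the same line.

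LGALS3 (chr14:55124110-55145423, plus strand) rose in both lines. In CAL27 it went from 78.6, 72.7 and 70.1 CPM with vehicle to 97.9, 87.4 and 97.5 with DOX (log2 0.35, SE 0.0483, adjusted p = 6.2e-06). In HSC3 it went from 252, 262 and 244 CPM to 314, 310 and 308 (log2 0.30, SE 0.0552, adjusted p = 0.0021). The groups were apart in both lines. LGALS3 mRNA thus rose by 1.28-fold and 1.23-fold while MUC1 mRNA fell by 18.5-fold and 7.38-fold. On the scale of CPM per kb there were 1.46 ± 0.0443 units of LGALS3 per unit of MUC1 in CAL27 vehicle cells and 34.6 ± 1.93 with DOX, and 158 ± 11.2 and 1640 ± 788 in HSC3. The last value ran from 1110 to 2540, with MUC1 at 16 to 46 counts per library. The size of these ratios depends on the gene lengths used. With canonical transcript lengths, LGALS3 and MUC1 stood at 77 and 30.5 CPM per kb in CAL27 vehicle cells and at 263 and 0.97 in HSC3 vehicle cells.

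LGALS1 (chr22:37675636-37679802, plus strand) fell in both lines. In CAL27 it went from 13.6, 14.6 and 12.6 CPM to 9.44, 8.53 and 9.36 (log2 -0.58, SE 0.0744, adjusted p = 2.1e-06). In HSC3 it went from 205, 195 and 167 CPM to 90.3, 135 and 141 (log2 -0.63, SE 0.146, adjusted p = 0.0075). Every DOX library lay below every vehicle library of its line, and HSC3 DOX library 1 lay lowest. Without that library the HSC3 log2 fold change was -0.46 (adjusted p = 1.5e-05), and without vehicle library 1 it was -0.57 (adjusted p = 0.049). With no filter on low counts the HSC3 adjusted p was 0.067.

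The balance of these galectins shifted with DOX in the same direction in both lines. The ratio of LGALS3 to LGALS1 in CPM went from 5.44 ± 0.415 to 10.3 ± 0.0795 in CAL27 and from 1.34 ± 0.113 to 2.66 ± 0.710 in HSC3 (SD, n = 3). No DOX library overlapped with a vehicle library of its line. In CPM per kb, LGALS1 was above LGALS3 in HSC3 vehicle cells, and with DOX LGALS3 was above LGALS1, at 141 ± 1.29 against 114 ± 25.7. LGALS3 lay at 140 to 143 and LGALS1 at 84.7 to 132 over the 3 DOX libraries, without overlap.

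LGALS3BP (chr17:78971238-78979947, minus strand) fell in both lines. In CAL27 it went from 368, 343 and 349 CPM to 253, 229 and 225 (log2 -0.59, SE 0.0437, adjusted p = 1.1e-09). In HSC3 it went from 203, 195 and 188 CPM to 117, 154 and 147 (log2 -0.49, SE 0.0955, adjusted p = 0.0028). The groups were apart in both lines, and HSC3 DOX library 1 was again lowest. The ligand gene fell by 1.5-fold and 1.41-fold, whereas the gene for its galectin partner rose.

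**Figure D3:**
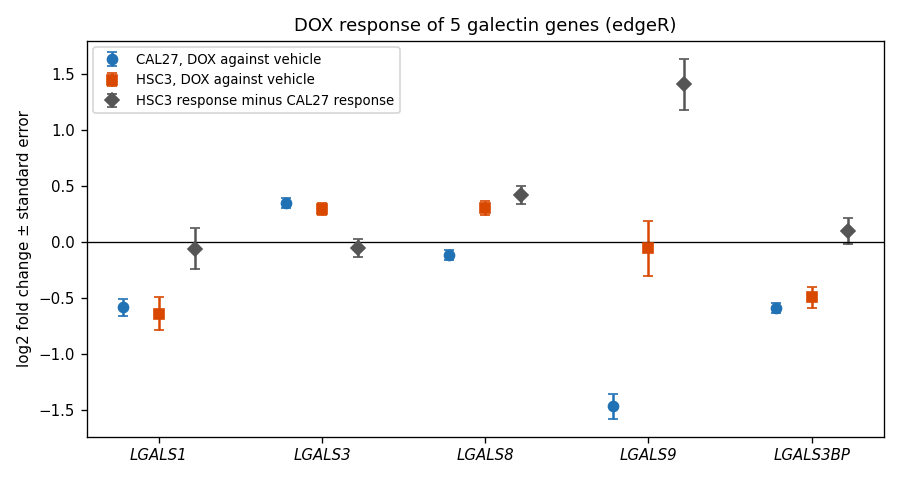
edgeR log2 fold changes with their standard errors for 5 members, DOX against vehicle in CAL27 and in HSC3, and the HSC3 response minus the CAL27 response. LGALS3 is above 0 and LGALS1 and LGALS3BP are below 0 in both lines, and the difference between the lines stands apart from 0 for LGALS8 (0.42) and LGALS9 (1.41).

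LGALS9 (chr17:27629798-27649560, plus strand) was the member with the largest change and the one that differed most between the lines. In CAL27 it went from 11.3, 9.92 and 11.0 CPM to 4.80, 3.62 and 3.33, with no overlap (log2 -1.46, SE 0.109, 2.76-fold, adjusted p = 4.3e-09). In HSC3 it stood at 1.21, 1.67 and 1.56 CPM with vehicle and 1.31, 1.51 and 1.46 with DOX. The HSC3 groups overlapped, and the log2 difference was -0.053 (SE 0.247, adjusted p = 0.91). The HSC3 values rest on 137 to 203 counts per library. The difference between the responses was 1.41 (SE 0.23, adjusted p = 0.00042).

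The LGALS9 copies moved in other ways, and the split of reads among them is not given in the sources used here. Over all annotated transcripts, LGALS9 shares 13.2% of its 50-base stretches with other genes (799 of 6075), LGALS9B 67.7% and LGALS9C 40.4%. The canonical LGALS9 transcript is only 1724 bases long, so the shared part of that transcript may be larger than 13.2%. LGALS9B went from 0.884, 0.582 and 0.685 CPM to 1.44, 1.13 and 1.62 in CAL27 (log2 0.96, SE 0.206, adjusted p = 0.00069), and from 5.50, 7.65 and 5.85 to 2.13, 3.52 and 3.78 in HSC3 (log2 -1.01, SE 0.229, adjusted p = 0.0068). The HSC3 and CAL27 responses of LGALS9B differed by -1.97 (adjusted p = 0.00064), opposite in sign to LGALS9. LGALS9C went from 0.149 to 0.222 CPM up to 0.344 to 0.443 in CAL27 (log2 1.05, SE 0.352, adjusted p = 0.019), and lay at 0.850 to 1.44 and 0.768 to 1.10 in HSC3 (-0.23, SE 0.317, adjusted p = 0.67).

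**Figure D4:**
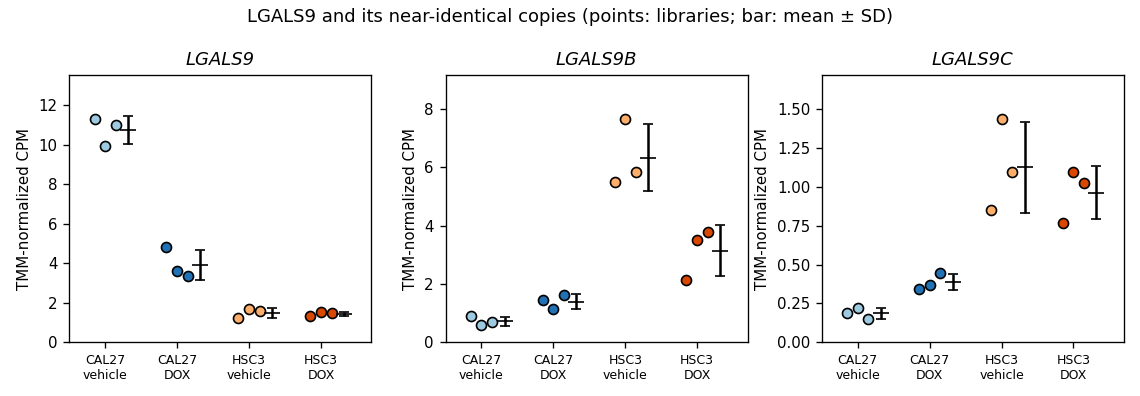
TMM-normalized CPM of LGALS9, LGALS9B and LGALS9C by group, each library as a point and the mean ± SD as a bar (n = 3), on linear axes that start at 0 and differ between panels. LGALS9 falls from 10.7 to 3.92 CPM on average in CAL27 and stays at 1.48 and 1.43 in HSC3, where LGALS9B falls from 6.33 to 3.14.

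LGALS9 made up 91.3 to 93.0% of the sum over the copies in CAL27 vehicle libraries and 61.7 to 72.9% with DOX, against 15.5 to 18.3% and 23.4 to 31.1% in HSC3. The sum went from 11.6 ± 0.831 to 5.70 ± 0.782 CPM in CAL27 and from 8.93 ± 1.64 to 5.53 ± 1.15 in HSC3. Tested as 1 gene, an alternative chosen after the data were seen, the sum had a log2 fold change of -0.69 in HSC3 (adjusted p = 0.018), and the difference between the lines was then 0.34 (adjusted p = 0.35). With the copies summed, the difference between the lines was thus no longer called.

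LGALS8 (chr1:236518000-236552981, plus strand) in CAL27 stood at 170, 166 and 165 CPM with vehicle, and with DOX it stood at 167, 149 and 149. The groups overlapped, and the fall was small (log2 -0.11, SE 0.0421, adjusted p = 0.037). The call was lost without vehicle library 1 (0.071) or 2 (0.065) or without the DOX library numbered 5 (0.19) or 6 (0.08), and in 1 fit over all 12 libraries (0.21). In HSC3 it went from 165, 156 and 164 CPM to 214, 196 and 193, with no overlap (log2 0.31, SE 0.062, adjusted p = 0.0034). The responses of the lines differed by 0.42 (SE 0.0799, adjusted p = 0.0014). Of the LGALS8 exons, 28.7% lie under genes on the opposite strand (HEATR1, LGALS8-AS1 and ENSG00000230325), and the use of strand in counting is not given in the sources used here.

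Compared between the lines over all members, 2 of 5 responses were called as different (LGALS8 and LGALS9), and 1 past 2-fold, where 20.6% of 20694 genes were called and 5.21% past 2-fold. Both were up, in a comparison with 8.25% of genes up and 12.3% down. The differences of LGALS1 (-0.055, SE 0.186, adjusted p = 0.90), LGALS3 (-0.053, SE 0.0804, adjusted p = 0.73) and LGALS3BP (0.098, SE 0.115, adjusted p = 0.64) were within the error, which does not show that the responses were equal. Without HSC3 DOX library 1 the LGALS3BP difference was 0.23 (adjusted p = 0.017). The DOX comparisons, the baseline comparison and this difference share the vehicle libraries.

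The order of levels changed little with DOX in CAL27, where LGALS3BP (68.8 ± 4.57 CPM per kb) stayed above LGALS3 (42.9 ± 2.7), LGALS8 (16.4 ± 1.08), LGALS1 (8.54 ± 0.477) and LGALS9 (0.685 ± 0.136). With canonical transcript lengths, LGALS3BP (102 to 115) and LGALS3 (91.3 to 102) met there. In HSC3 DOX cells LGALS3 and LGALS1 were followed by LGALS3BP (40.7 ± 5.60), LGALS8 (21.3 ± 1.2) and LGALS9 (0.250 ± 0.0183).

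Of 10 further galectin and galectin-like genes, 5 passed the filter in each line. In CAL27, 3 rose and 1 fell (22.6% and 21.8% of all genes), and in HSC3, 0 rose and 1 fell (13.0% and 15.4%). Besides the copies above, LGALS2 stood at 0.199 and 0.367 CPM in CAL27 (log2 0.87, adjusted p = 0.047). LGALSL, a galectin-like protein gene, fell from 21.0 to 17.9 CPM in CAL27 (log2 -0.23, SE 0.0599, adjusted p = 0.0032), a call lost in 1 fit over all 12 libraries (adjusted p = 0.13). LGALS12, LGALS13 and LGALS16 had no count in any library.

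Genes for glycoproteins that galectins bind were set beside the members. Of 21 surface and matrix partners tested in CAL27, 6 rose, 10 fell and 5 did not pass (22.6% of all genes rose and 21.8% fell), with a median log2 fold change of -0.0971 against -0.0052 over all genes. In HSC3, 1 rose, 9 fell and 10 of 20 did not pass (13.0% of all genes rose and 15.4% fell), with a median of -0.18 against -0.0097. The partners that fell include MUC1, the target of the shRNA, in both lines. The mucin gene MUC16 fell from 202 to 102 CPM in CAL27 (log2 -0.99, SE 0.251, adjusted p = 0.036). That call was lost without vehicle library 1 (0.071), 2 (0.098) or 3 (0.095). It was also lost without the DOX library numbered 4 (0.069) or 5 (0.12), and with no filter on low counts (0.062). In HSC3, MUC16 fell from 1.755 to 0.594 CPM (-1.56, SE 0.289, adjusted p = 0.002). NRP1, the neuropilin that binds galectin-1, rose in CAL27 from 36.7 to 66.2 CPM on average (log2 0.85, adjusted p = 8.3e-12) and stood at 290 and 258 CPM in HSC3 (-0.17, adjusted p = 0.066). The HSC3 fall of NRP1 was called with library totals (-0.20, adjusted p = 0.03), in 1 fit over all 12 libraries (-0.17, 0.024) and without DOX library 1 (-0.19, 0.0097). CD44, the hyaluronan receptor, rose in CAL27 from 1742 to 2543 CPM (log2 0.54, adjusted p = 1.7e-09) and stood at 4133 and 4138 in HSC3, where the call was absent (adjusted p = 0.98) and the sign of the log2 value changed with the scaling.

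In HSC3 the matrix glycoprotein gene FN1 rose from 125 to 585 CPM (log2 2.22, SE 0.0617, adjusted p = 1.5e-08), and in CAL27 it stood at 35.9 and 36.5 (0.025, adjusted p = 0.73). MCAM, an adhesion molecule that binds galectin-1, fell in HSC3 from 3.36 to 1.16 CPM (-1.54, SE 0.237, adjusted p = 0.00062) and stood at 5.98 and 6.65 in CAL27 (0.15, adjusted p = 0.20). The responses of FN1 and MCAM differed between the lines by 2.20 (adjusted p = 9.7e-11) and -1.69 (adjusted p = 9.6e-05). At baseline all 21 partners tested were called, 12 higher and 9 lower in HSC3, where 71.8% of all genes were called. MUC16, a transmembrane mucin gene, was 116-fold and MUC1 31.7-fold lower in HSC3 (adjusted p = 1.2e-13 and 4.6e-14). HSC3 held 6.61-fold more ITGB1, the β1 integrin, and 7.91-fold more NRP1 than CAL27 (adjusted p = 9.1e-15 and 6.4e-14).

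Among 12 intracellular partners, 3 rose and 2 fell in CAL27, close to the 44.5% called over all genes, and 2 rose and 3 fell in HSC3, where 28.4% of all genes were called. HRAS, whose membrane clusters bind galectin-1, rose in CAL27 from 12.6 to 15.4 CPM (log2 0.29, SE 0.0618, adjusted p = 0.00063, or 0.057 in 1 fit over all 12 libraries) and fell in HSC3 from 18.4 to 12.4 (-0.57, SE 0.135, adjusted p = 0.0083). ATG16L1, an autophagy gene, rose in CAL27 (0.72, adjusted p = 4.2e-09) and in HSC3 (0.39, adjusted p = 0.025). The HSC3 call of ATG16L1 was lost without vehicle library 1 (0.092), 2 (0.085) or 3 (0.079) or DOX library 2 (0.098).

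The glycan-branching enzymes make the N- and O-glycans to which galectins bind. Of 11 tested, 2 rose and 6 fell in CAL27 (median -0.18), where 22.6% of all genes rose and 21.8% fell. In HSC3, 3 rose and 2 fell (median -0.071), where 13.0% of all genes rose and 15.4% fell. ST6GAL1, whose α2,6-sialylation blocks the binding of galectin-1, fell in both lines, from 24.8 to 17.8 CPM in CAL27 (log2 -0.48, adjusted p = 7.2e-07) and from 12.1 to 6.88 in HSC3 (-0.82, adjusted p = 0.00091). B3GNT2, the poly-N-acetyllactosamine extending enzyme, also fell in both (-0.20, adjusted p = 0.0049, or 0.05 in 1 fit over all 12 libraries, and -0.54, adjusted p = 0.0011). MGAT1, the enzyme that starts complex N-glycans, rose in CAL27 from 51.2 to 68.0 CPM (0.41, adjusted p = 5e-07) and in HSC3 from 67.1 to 81.3 (0.27, adjusted p = 0.041). The HSC3 call of MGAT1 was lost without vehicle library 1 (0.083), 2 (0.12) or 3 (0.16) or DOX library 2 (0.14) or 3 (0.12), and with library totals (0.077). GCNT1, the core 2 O-glycan enzyme, fell in CAL27 from 107 to 93.9 CPM (-0.20, adjusted p = 0.00032) and rose in HSC3 from 10.4 to 14.7 (0.51, adjusted p = 0.0065).

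**Figure D5:**
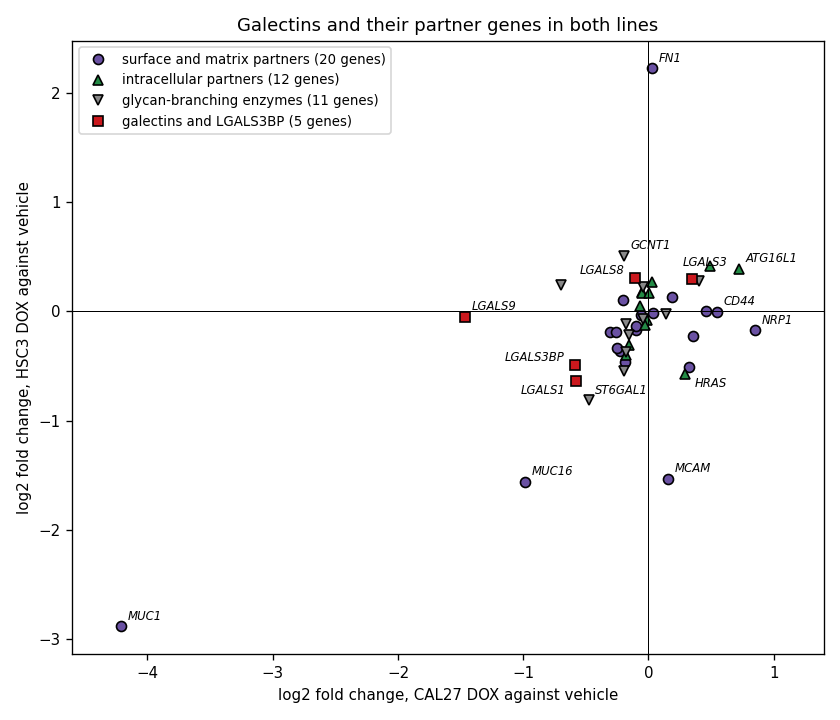
Log2 fold change with DOX in CAL27 (horizontal) and HSC3 (vertical) for the 20 surface and matrix partners, 12 intracellular partners, 11 glycan-branching enzymes and 5 members tested in both lines. MUC1 lies at -4.21 and -2.88, FN1 at 0.025 and 2.22, and LGALS9 at -1.46 and -0.053.

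Interferon-inducible genes were set beside LGALS9 and LGALS3BP. All 6 fell in CAL27, where 21.8% of all genes fell, with a median log2 fold change of -1.75, and 4 of 6 fell in HSC3, where 15.4% of all genes fell, with a median of -1.11. MX1, an antiviral GTPase gene, fell from 374 to 52.0 CPM in CAL27 (log2 -2.85) and from 30.2 to 8.03 in HSC3 (-1.92). ISG15, the ubiquitin-like protein gene, fell from 61.0 to 23.4 CPM in CAL27 (-1.39, adjusted p = 3.1e-12) and stood at 8.60 and 9.15 CPM in HSC3 (0.083, adjusted p = 0.83). IRF1, an interferon regulatory factor gene, fell in CAL27 (-0.72, adjusted p = 3.6e-06) and stood at 20.2 and 24.0 CPM in HSC3 (adjusted p = 0.28). ISG15 and IRF1 were, like LGALS9, called in CAL27 and not in HSC3, with differences between the lines of 1.47 (adjusted p = 4e-04) and 0.96 (adjusted p = 0.0014). An ISRE was held by 3 of the 5 reference genes with a window, namely IFIT1, ISG15 and MX1. A link between the motif and any response was not tested.

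Keratinocyte differentiation genes mark the setting in which LGALS7 is known to be expressed. Of 8 tested in CAL27, 4 fell and 0 rose, where 21.8% of all genes fell. Of 7 tested in HSC3, 2 fell and 0 rose, where 15.4% of all genes fell. KRT13, a keratin of non-cornified epithelium, fell in CAL27 from 24.9 to 2.44 CPM (log2 -3.37, adjusted p = 4.4e-07). In HSC3 it stood at 0.314 and 0.147 CPM, with overlap (-1.10, SE 0.769, adjusted p = 0.35).

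Over the 12 libraries, with each line's mean subtracted, the genes most like each member were listed from 8638 candidates. The points share library and DOX status, so a high value is a description of what moved with DOX. LGALS3 was most like DIMT1 (r = 0.98), WSB2 (0.974) and HSPA8 (0.971). LGALS1 was most like APEH (0.99), RANBP10 (0.986) and CLSTN1 (0.985), and LGALS3BP was most like TLE5 (0.991), SLC35E2B (0.989) and SHMT2 (0.988). LGALS9 was most like TRIM4 (0.981), LAP3 (0.979) and GLUL (0.976), and LGALS8 was most like UBE2D1 (0.972), ABI1 (0.971) and LIPA (0.968).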

How the data were processed

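RNA-seq was performed on 12 libraries. Per the paper's methods and the submitters' processing notes, poly(A) TruSeq Stranded mRNA libraries were checked with FastQC 0.11.9, aligned with STAR 2.7.9a to GRCh38 and counted with featureCounts (Subread 2.0.1). The authors deposited raw whole-number counts per gene symbol for each line, and the counts used here had not been normalized. The strand setting, how duplicated or multiply mapped reads were treated and the annotation counted are not given in the sources used here. The CAL27 DOX columns are numbered 4 to 6 and were assigned to their group without a replicate number. No 2 libraries held the same values, and each was counted as 1 replicate (chi-square per degree of freedom 7.27 to 132 over 12 pairs).

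Counts were analysed with edgeR 4.0.16 in R 4.3.3 (TMM, filterByExpr at its minimums of 10 counts and 15 in total, robust glmQLFit, two-sided glmQLFTest), each comparison on its own groups and the difference between lines as an interaction over 12 libraries. Adjusted p-values are Benjamini-Hochberg over all genes tested, and a gene was called at an adjusted p under 0.05. The SE is the size of the log2 fold change over the square root of F. CPM values come from 1 TMM normalization of all 12 libraries. Symbols were matched to GENCODE v44 (38934 of 39368) for positions and exon lengths, which may differ from the features counted. The scripts were tested on simulated data.

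Alternatives were DESeq2 1.42.0, its size factors, library totals, no filter, a 2-fold minimum, counts divided by the counts per molecule, near-identical copies summed, 1 fit over all libraries, the replicate block and each library left out. The members and lists were chosen with earlier results of these data known. Named genes were all members, at most the 4 largest changes per list and comparison among called genes with a mean of at least 5 CPM in a group, and MUC1. Genes named beside these to give the other line's value, and LGALS2, LGALS9C, LGALS12, LGALS13, LGALS16 and the marker genes named, were chosen after their values were seen. For likeness, the 3 genes with the highest Pearson r of log2 CPM (prior count 2, at least 8 CPM in both lines) were named per member. The floor of 3 counts takes each count as independent, whereas the SD and SE include the spread between cultures.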

Additional observations from a re-analysis of the deposited data

Results flagged for a closer look

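The responses of the lines differed, by the interaction of line and DOX (edgeR, HSC3 minus CAL27 on the log2 scale), for the members and named list genes that follow, which are not all that were called. Among the members, LGALS8 differed by 0.42 and LGALS9 by 1.41, and the copy LGALS9B by -1.97. Of 21 surface and matrix partners, 10 were called, 3 up, with MUC1 among them, and 7 down. Over all 20694 genes tested, 20.6% were called, 8.25% up and 12.3% down. Among the surface and matrix partners with the largest differences, FN1 differed by 2.20, MCAM by -1.69 and NRP1 by -1.02. Of 12 intracellular partners, 1 was called, HRAS, which differed by -0.86. MUC1 itself differed by 1.36 (adjusted p = 0.001, or 0.091 on counts scaled to molecules). Among the glycan enzymes, GCNT1 differed by 0.71, MGAT5 by 0.27 and B3GNT2 by -0.34, and B3GNT2 lost its call without CAL27 vehicle library 2 (-0.30, adjusted p = 0.08) or 3 (-0.34, 0.053) or without the CAL27 DOX library numbered 4 (-0.30, 0.063) or 5 (-0.33, 0.051). Among the interferon-inducible genes, ISG15 differed by 1.47, OAS1 by 1.01, IRF1 by 0.96 and MX1 by 0.94. KRT13 differed by 2.25, and on counts scaled to molecules by 2.12 (adjusted p = 0.17). Its HSC3 values rest on 14 to 65 counts per library. No cause was tested for any of these differences.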

How the results depend on the processing

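Over 4 comparisons, the alternatives gave 335 recomputed values for 20 member values. Of these, 310 kept direction and side of the threshold, 17 lost and 3 gained the call, and 5 changed sign without a call. With a 2-fold minimum the members called were 1 in CAL27, 0 in HSC3 and 1 for the difference between the lines, and with LGALS9, LGALS9B and LGALS9C summed, chosen after seeing the data, the difference called 1. Leaving out each library in turn gave 4 to 5 members called in CAL27, 4 in HSC3, 4 at baseline and 2 to 3 for the difference. Over all genes the 2-fold minimum left 1236 of 8554 calls in CAL27, 1077 of 5124 in HSC3, 6739 of 13939 at baseline and 1078 of 4255 for the difference, and 1 fit over all libraries called 5083 in CAL27. Leaving out a library gave 7343 to 9001 calls in CAL27 and 3567 to 6869 in HSC3. Sign changes were LGALS9 in HSC3 (0.0356 without vehicle 2 and 0.0118 without DOX 1, with -0.178 the lowest), the LGALS1 difference (0.0121 without CAL27 vehicle 3, 0.0211 without HSC3 vehicle 1 and 0.141 without HSC3 DOX 1, with -0.154 the lowest), CD44 in HSC3 (0.00871 with DESeq2 or its size factors, 0.00158 in 1 fit, 0.0286 without vehicle 3 and 0.0123 without DOX 2, with -0.0284 the lowest) and ISG15 in HSC3 (-0.0267 without vehicle 2, -0.0316 without vehicle 3 and -0.0479 without DOX 3, with 0.343 the highest). The cause was not tested. The replicate block could be fitted for HSC3 and for the baseline, called 4 members in each as without it, and was not possible for CAL27, whose DOX columns carry no number. Same-numbered libraries did not deviate together (r -0.16, 0.19 and -0.24 in HSC3, and 0.072, 0.083 and 0.14 between the vehicle groups). Under the block MGAT1 in HSC3 lost its call (adjusted p = 0.068). Depth limits LGALS7, LGALS7B and the HSC3 values of LGALS9 and MUC1, where several counts stand for 1 molecule. For LGALS7 and LGALS7B the treatment of reads matching both genes is a further limit.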
